A study of Mus musculus with 8 samples.

Results

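The 34 genes described here encode the B cell receptor complex, its coreceptors and inhibitory receptors, and the kinases, adaptors and effectors that carry its signal. They were taken from a list chosen, like the gene lists below, with earlier results of these data known. Shares set beside all genes are therefore descriptions. The list was matched to the deposited count table by gene symbol. All 34 were among the 27179 genes of that table, and all 34 passed the filter on low counts that left 15073 genes for testing. RNA came from plasma cells, the antibody-secreting end stage of the B lineage, sorted from mouse bone marrow as cells positive for CD138 and for the Blimp1-GFP reporter. All animals were of the C57BL/6 background, and cells of every group were sorted with the reporter, controls included. Wild type (WT) replicates 1 and 2 and both libraries of genotype Blimp1-/- (Blimp1KO) form batch 1, and WT replicates 3 and 4 and both libraries of genotype Xbp1-/- (Xbp1KO) form batch 2. Each knockout was therefore compared with its own 2 WT libraries. What the batches mark, how, when and in which cells the alleles were deleted, the age and number of the animals, and whether animals were pooled are not given in the sources used here. The deposited files of batch 2 carry the term CreER, a Cre recombinase switched on by tamoxifen, in the names of both genotypes.

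The B cell receptor is a membrane immunoglobulin that cannot signal alone. Its partners CD79A and CD79B carry tyrosine motifs that Lyn and Blk phosphorylate and that Syk then binds. Syk, Btk and the adaptor BLNK together activate phospholipase C gamma, calcium release, protein kinase C beta and the NF-kappa B and NFAT pathways, while coreceptors lower the threshold for this. Inhibitory receptors such as CD22, CD72, Fc gamma RIIb and Siglec-G recruit the phosphatases SHP-1 and SHIP-1, which oppose it. Plasma cells turn much of their immunoglobulin from the membrane form to the secreted form, and Blimp1 is known as a repressor of B cell genes in these cells. XBP1 is known for driving the secretory pathway.

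The promoters of 27 of the 34 genes were in the RefSeq promoter set of GRCm38.p6, and each was searched over the 250 bases before the start of transcription. Cd79b, Ms4a1, Lyn, Blk, Lat2, Malt1 and Nfatc1 were not in it. The letters GNGAAAG, a core of sites that Blimp1 binds, were found on either strand in 10 of the 27, against 21.8% of the 27025 genes in the table. The letters ACGTGG, a core of XBP1 sites, searched with their reverse complement CCACGT, were found in 4 of the 27 (Cd37, Pik3cd, Pik3ap1 and Plcg2), against 7.84% of all genes. A match is a description of the letters and not of binding. The stretches around GNGAAAG are printed for 5 genes whose values are described below, in 5′ to 3′ direction on the strand of the gene, with the match in capitals (CTTTCNC where it lies on the other strand). They lie at chr7:43407989-43408078 (+ strand) for Siglecg, chr1:195176881-195176969 (- strand) for Cr2, chr3:136326142-136326247 (- strand) for Bank1, chr11:115699929-115700037 (- strand) for Grb2 and chr7:24897247-24897314 (+ strand) for Cd79a. The Grb2 stretch lies inside the span of the gene and outside annotated exons, and the other 4 lie before it.
Siglecg: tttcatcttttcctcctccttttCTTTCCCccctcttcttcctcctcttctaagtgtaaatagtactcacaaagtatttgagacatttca
Cr2: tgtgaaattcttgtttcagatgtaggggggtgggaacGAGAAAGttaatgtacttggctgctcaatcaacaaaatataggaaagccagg
Bank1: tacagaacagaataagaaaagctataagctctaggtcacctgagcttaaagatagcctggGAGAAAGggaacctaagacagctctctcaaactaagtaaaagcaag
Grb2: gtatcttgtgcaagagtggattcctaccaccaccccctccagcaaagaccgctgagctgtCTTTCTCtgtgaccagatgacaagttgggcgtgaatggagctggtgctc
Cd79a: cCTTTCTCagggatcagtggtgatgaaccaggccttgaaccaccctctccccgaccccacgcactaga
The matches begin 227 bases before the start of transcription given by the promoter set in Siglecg, 213 in Cr2, 121 in Bank1, 49 in Grb2 and 249 in Cd79a. In Siglecg, Cr2, Bank1 and Grb2 that start lies inside the span of the gene, so these distances are not counted from the edge of the span. The other genes with a match were Cd37, Btk, Pik3cd, Vav1 and Rasgrp3, and the Cd37 match was not printed because it lies in an exon. In Blimp1KO the estimates of the 10 genes did not share 1 direction. They were higher for Siglecg, Bank1, Grb2, Cd37, Btk, Vav1 and Rasgrp3 and lower for Cr2, Cd79a and Pik3cd. Of these 10 only Siglecg was called in Blimp1KO.

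Total counts ranged from 44 M to 145 M per library (M, 1000000 counts), and immunoglobulin genes took between 75.7% of them in WT replicate 1 and 25.2% in Xbp1KO replicate 2. Counts were scaled by TMM, which adjusts library sizes for such shifts in composition, and values below are CPM, counts per M of the scaled library size. Fold changes carry the standard error (SE) of the fit, every adjusted p is from the quasi-likelihood test of edgeR, adjusted by Benjamini-Hochberg over the 15073 genes, and a gene is called changed at an adjusted p below 0.05, with 2 libraries per group throughout. Whole-gene counts of Prdm1, which encodes Blimp1, had log2 fold changes of -0.54 ± 0.25 in Blimp1KO (SE, adjusted p = 0.401) and 0.63 ± 0.25 in Xbp1KO (adjusted p = 0.18), and those of Xbp1 had -0.98 ± 0.25 (adjusted p = 0.141) and -0.85 ± 0.25 (adjusted p = 0.0939). A gene-level count also takes reads from exons that a deletion leaves in place, so these values do not test the labels. The log2 fold changes of Sdc1 (CD138) were -0.52 ± 0.22 (adjusted p = 0.361) and 0.74 ± 0.22 (adjusted p = 0.098). Plasma cell identity was measured by 16 markers. Their summed level was 114275 to 122661 CPM in batch 1 WT and 60947 to 74821 CPM in Blimp1KO, and 53467 to 71341 CPM in batch 2 WT and 35111 to 43800 CPM in Xbp1KO. Of the markers named here, Xbp1 and Mzb1 had the highest levels in WT replicate 1, at 3005 and 1637 CPM. Most of the sum thus came from markers not named here. None of the 16 was called in Blimp1KO by edgeR (5 at an unadjusted p below 0.05, 4 by DESeq2), where all 16 estimates were lower (median log2 -0.53; smallest p for Fkbp11 at -1.27 ± 0.30, adjusted p = 0.119, and Edem1 at -1.06 ± 0.26, adjusted p = 0.132), and Fkbp11, Mzb1 and Derl3 were called lower in Xbp1KO. In Xbp1KO 8 of the 16 estimates were higher and 8 lower (median log2 -0.05), so the sum fell while the median hardly moved. WT replicate 4 and Xbp1KO replicate 2 stood apart from their partners by 24 neutrophil and monocyte markers, which summed to 678 and 1631 CPM there, against 17 and 45.7 CPM in WT replicate 3 and Xbp1KO replicate 1.

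The WT libraries held RNA of every one of the 34 genes, over a wide range of levels. Per length, on the deposited log2 FPKM scale, the mean level in batch 1 WT was highest for Cd79a at 9.26 ± 0.07 (SD, n = 2) and Cd79b at 9.21 ± 0.05, which did not differ beyond their spread. Next came Cd81, a tetraspanin of the cell surface, at 8.40 ± 0.11, then Blnk at 7.49 ± 0.04, Cd37 at 7.32 ± 0.07 and Ptpn6 at 7.27 ± 0.20, and the last 2 overlapped. The middle of the order, from Ms4a1 at 6.75 ± 0.19 down to Siglecg at 3.31 ± 0.33, held all 6 kinases. The 4 surface receptors with the lowest levels, known from mature B cells, were Cd22 at 1.90 ± 0.02, Cd72 at 1.19 ± 0.17, Fcer2a at 0.89 ± 0.17 and Cr2 at -1.08 ± 0.66. Cd72 and Fcer2a were neighbours whose 2 libraries did not overlap in batch 1 WT (1.07 and 1.32 against 0.77 and 1.00) and did overlap in batch 2 WT. The same 4 genes were the lowest 4 in batch 2 WT, where Cd79b at 9.26 ± 0.02 and Cd79a at 9.12 ± 0.13 were again the highest 2.

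**Figure D1:**
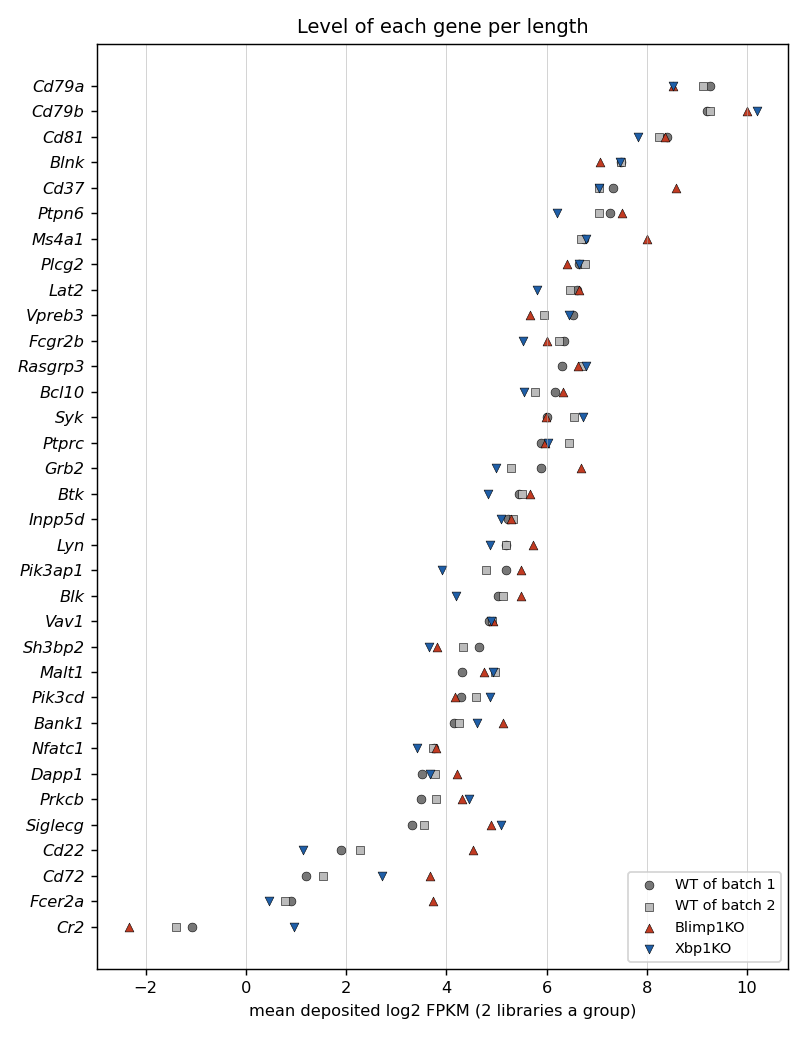
Mean deposited log2 FPKM, a level per gene length, of each of the 34 genes (rows) in the 4 groups of 2 libraries, sorted by batch 1 WT. Cd79a and Cd79b stand at the top at 9.26 and 9.21 and Cr2 at the bottom at -1.08, and Cd22, Cd72 and Fcer2a lie to the right in Blimp1KO at 4.54, 3.68 and 3.74.

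The question for each knockout was which parts of the receptor pathway differ from WT of the batch. In Blimp1KO, 1 of the 34 genes was called higher (Siglecg) and 1 lower (Sh3bp2), where the share of all tested genes called was 0.577% higher and 0.285% lower. In Xbp1KO, 2 were called higher (Cr2 and Siglecg) and 2 lower (Ptpn6 and Sh3bp2), where 2.63% of all tested genes were called higher and 5.06% lower. So 2 of 34 genes passed the test in the 1 knockout and 4 of 34 in the other, and most of the pathway did not pass. Siglecg and Sh3bp2 were called in both. At an unadjusted p below 0.05 there were 15 genes in Blimp1KO, 12 of them with higher estimates, and 11 in Xbp1KO, 3 of them with higher estimates. Of all 15073 genes, 2093 and 3552 passed that limit. The median log2 fold change of the 34 genes was 0.28 in Blimp1KO, beside -0.0061 over all tested genes, and -0.11 in Xbp1KO, beside 0.082. Size factors by DESeq2's median of ratios (RLE) called 4 genes in Blimp1KO, 3 higher and 1 lower, and leaving out immunoglobulin genes before scaling called 5, 4 higher and 1 lower. DESeq2 called 12 of the 34 members in Blimp1KO, of 813 genes it called in all, and 10 in Xbp1KO, of 2172. With each batch fitted alone, 1 member was called in Blimp1KO (Fcer2a), of 20 genes in all, and 10 in Xbp1KO, of 1491. The fit over all libraries called 130 and 1160 genes in all.

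Counting libraries alone, 17 of the 34 genes were higher in both Blimp1KO libraries than in both WT libraries, and 6 were lower in both, where these shares of all tested genes were 20.9% and 22.1%. In Xbp1KO, 6 were higher in both libraries and 16 lower, where 31.8% and 25.8% of all tested genes were. As shares of the 34 genes these were 50% and 17.6% in Blimp1KO and 17.6% and 47.1% in Xbp1KO. Side by side, 4 genes stood above WT without overlap in both knockouts (Cd79b, Siglecg, Prkcb and Bank1; 8.26% of all genes did) and 2 stood below it in both (Cd79a and Sh3bp2; 9.1% of all genes). Another 6 were above WT in Blimp1KO and below it in Xbp1KO (Ptpn6, Lyn, Btk, Grb2, Vav1 and Bcl10; 4.11% of all genes), and Cr2 alone was below in Blimp1KO and above in Xbp1KO (5.17% of all genes). The 2 comparisons share no control library.

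**Figure D2:**
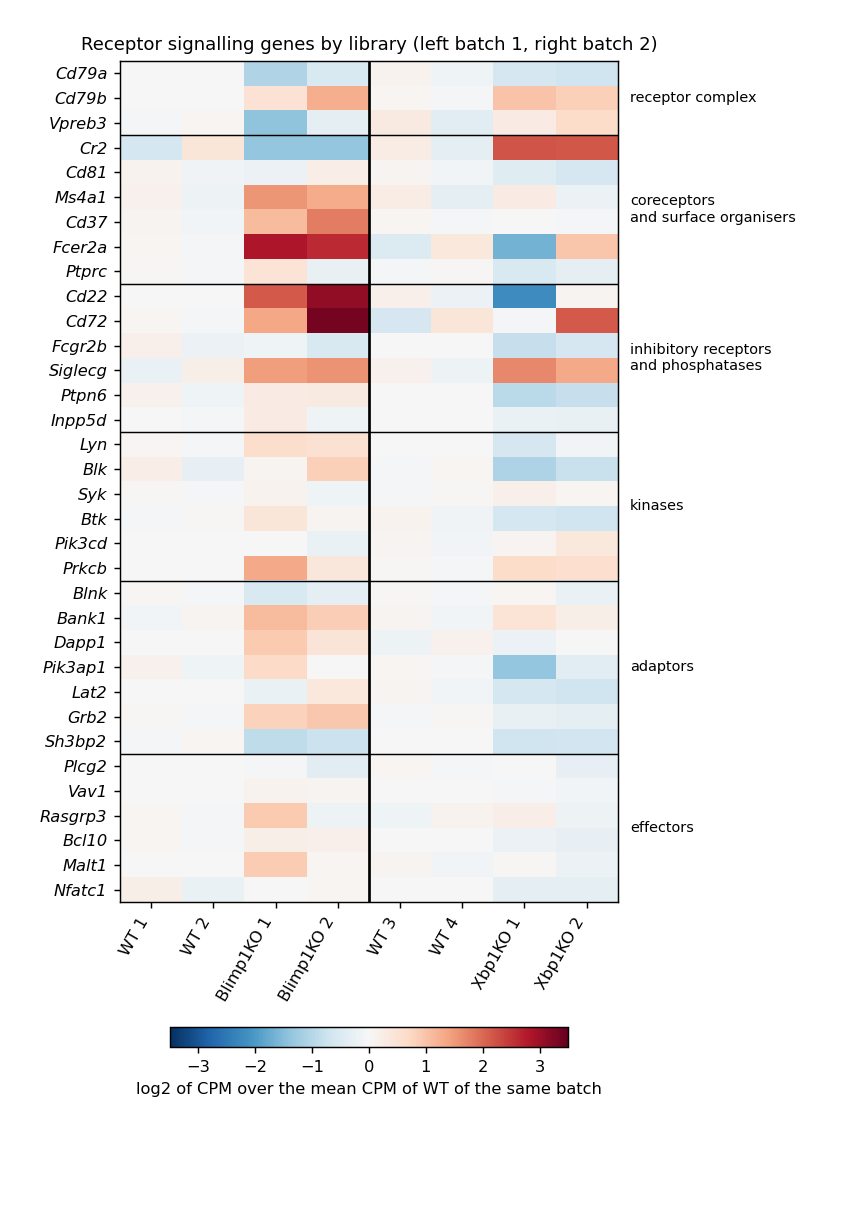
Heat map of the 34 genes (rows, grouped by role) in the 8 libraries (columns), as log2 of CPM over the mean CPM of WT of the same batch. Siglecg is red in all 4 knockout libraries and Sh3bp2 blue in all 4, while Cd22, Cd72 and Fcer2a differ between the 2 libraries of Xbp1KO.

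The 2 signalling subunits of the receptor stood on opposite sides of WT in both knockouts. Cd79a lies on chromosome 7, 24897497 to 24901858 (GRCm38.p6, as for all positions here). Its level was 425 and 418 CPM in WT replicates 1 and 2 against 202 and 290 CPM in Blimp1KO, and 326 and 269 CPM in WT replicates 3 and 4 against 197 and 184 CPM in Xbp1KO. Cd79b (chromosome 11, 106311341 to 106314562) had 376 and 372 CPM against 536 and 911 CPM in batch 1, and 311 and 283 CPM against 595 and 532 CPM in batch 2. Every knockout library was thus below its WT libraries for Cd79a and above them for Cd79b. Neither gene passed the test alone: the log2 fold changes of Cd79a were -0.78 ± 0.23 in Blimp1KO (adjusted p = 0.202) and -0.65 ± 0.23 in Xbp1KO (adjusted p = 0.149), and those of Cd79b 0.95 ± 0.28 (adjusted p = 0.198) and 0.92 ± 0.28 (adjusted p = 0.1). DESeq2 called both genes in both knockouts.

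Because both subunits are measured in the same library, their ratio does not depend on how libraries are scaled. This ratio was chosen after the values of the 2 genes were seen. Per length, Cd79a stood to Cd79b at 1.02 and 1.02 in WT replicates 1 and 2 and at 0.948 and 0.857 in WT replicates 3 and 4, so the 2 messages were near equal in WT. It was 0.341 and 0.288 in Blimp1KO and 0.299 and 0.311 in Xbp1KO, below every WT library of either batch. The ratio was 3.25-fold lower in Blimp1KO, a log2 difference of -1.70, and 2.96-fold lower in Xbp1KO, a log2 difference of -1.56. No test is given for a ratio chosen in this way. On deposited log2 FPKM the differences were -1.51 and -1.54. Vpreb3, which binds nascent receptor chains in the B lineage, had 22.5 and 25 CPM in batch 1 WT and 8.95 and 19 CPM in Blimp1KO (log2 -0.76 ± 0.38, adjusted p = 0.443). In batch 2 its groups overlapped (log2 0.46 ± 0.38, adjusted p = 0.522).

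**Figure D3:**
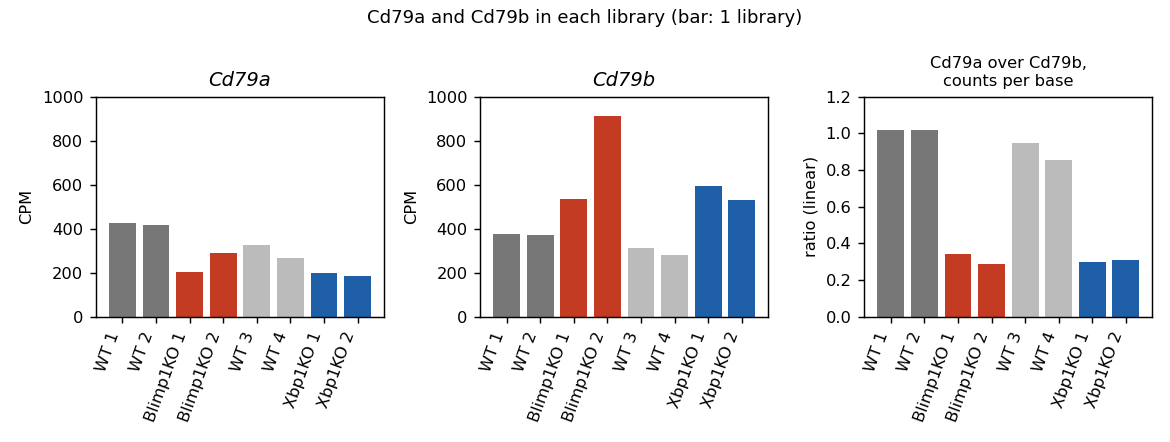
Bars show, for each of the 8 libraries, the CPM of Cd79a and of Cd79b and the ratio of their counts per base of gene length. The ratio is between 0.857 and 1.02 in the 4 WT libraries and between 0.288 and 0.341 in the 4 knockout libraries.

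Among coreceptors and surface organisers, the complement receptor gene Cr2 was the 1 that changed, and it did so in Xbp1KO. Cr2 encodes CD21, which binds complement on antigen (chromosome 1, 195136811 to 195176880). It had 1.48 and 0.98 CPM in WT replicates 3 and 4 and 5.68 and 5.55 CPM in Xbp1KO, with 173 and 68 counts against 1063 and 515. That is a 4.56-fold rise (log2 2.19 ± 0.42, adjusted p = 0.0273). In batch 1 it had 0.975 and 2 CPM in WT and 0.587 and 0.581 CPM in Blimp1KO, a log2 fold change of -1.35 ± 0.42 (adjusted p = 0.219). Xbp1KO libraries were above all others and Blimp1KO libraries below all others, and Cr2 remained the lowest of the 34 genes per length in 3 of the 4 groups. The 2 knockout effects on Cr2 differed by -3.53 ± 0.60 on the log2 scale (adjusted p = 0.0412). Over all tested genes, 1.17% of genes were called in that difference with a higher effect in Blimp1KO and 0.511% with a lower one, and of the 34 genes only Cr2 and Grb2 were. The test sets 2 knockouts in 2 batches against each other, so knockout and batch cannot be told apart in it. Cr2 lost its call in Xbp1KO without WT replicate 3, WT replicate 4 or either Xbp1KO library (log2 fold change 1.92 to 2.51 and adjusted p 0.0278 to 0.156 when each library was left out), and the difference lost it without any 1 of the 8. On deposited log2 FPKM, the log2 fold change of Cr2 in Xbp1KO was 2.35 (adjusted p = 0.0555 by limma). The span of Cr2 overlaps that of the long non-coding RNA gene Gm32313, and counting by strand is not given in the sources used here.

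Ms4a1 (CD20) and the tetraspanin gene Cd37, both surface proteins of B cells, stood higher in Blimp1KO without passing the test. Ms4a1 had 108 and 85.8 CPM in batch 1 WT and 285 and 240 CPM in Blimp1KO (log2 1.44 ± 0.28, adjusted p = 0.0782). In batch 2 it had 106 and 70.1 CPM in WT and 108 and 76.3 CPM in Xbp1KO, so these groups overlapped. Cd37 had 89.4 and 79.5 CPM against 183 and 292 CPM in batch 1 (log2 1.49 ± 0.24, adjusted p = 0.0504), and 68.7 and 63.1 CPM against 65 and 64.4 CPM in batch 2. RLE scaling, DESeq2, deposited log2 FPKM, the fit without the low-count filter and the scaling without immunoglobulin genes called Cd37 in Blimp1KO. Cd81 and Ptprc, which encodes the phosphatase CD45 that keeps Src kinases active, overlapped between groups in batch 1. In batch 2 both were below WT without overlap, at -0.49 ± 0.22 and -0.44 ± 0.26 log2.

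Fcer2a (CD23, the low-affinity IgE receptor), Cd22 and Cd72 shared a pattern: very low in WT, higher in both Blimp1KO libraries, and split between the 2 Xbp1KO libraries. Fcer2a had 2.13 and 1.97 CPM in batch 1 WT and 14.5 and 12.6 CPM in Blimp1KO, and 1.43 and 2.54 CPM in batch 2 WT against 0.636 and 3.88 CPM in Xbp1KO. Cd22 had 6.94 and 7.14 CPM against 31.1 and 60.6 CPM in batch 1, and 10.1 and 7.62 CPM against 1.92 and 9.55 CPM in batch 2. Cd72 had 1.7 and 1.55 CPM against 4.15 and 16.6 CPM in batch 1, and 1.43 and 2.88 CPM against 2.1 and 9.53 CPM in batch 2. No Blimp1KO library overlapped WT for any of these genes, and for all 3 genes Xbp1KO replicate 2 exceeded replicate 1. Their log2 fold changes in Blimp1KO were 2.72 ± 0.76 (adjusted p = 0.175), 2.70 ± 0.70 (adjusted p = 0.145) and 2.67 ± 0.89 (adjusted p = 0.243). Without Blimp1KO replicate 2, that of Cd72 was 1.35, and Blimp1KO replicate 1 was below Xbp1KO replicate 2 for this gene. The spread of the fit is shared by all 8 libraries: without either Xbp1KO library Fcer2a and Cd22 were called higher in Blimp1KO, and with batch 1 fitted alone Fcer2a was. The widest gap between the 2 libraries was 2.00 on the log2 scale within Blimp1KO, for Cd72, against a median over the 34 genes of 0.35, and 2.61 within Xbp1KO, for Fcer2a, against a median of 0.19. Within Xbp1KO the gaps of Cd22 and Cd72 were 2.31 and 2.19.

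Markers of other cell types moved with some of these values. In Blimp1KO, 7 of 24 mature B cell markers outside the 34 genes were called higher and none lower, with a median log2 fold change of 1.59, and Ltb, Fcmr, Spib and Ly86 had the smallest p. Without any 1 of the 4 WT libraries these markers lost their calls in Blimp1KO, as did almost all genes tested. The 24 summed to 887 and 771 CPM in batch 1 WT and 2229 and 2705 CPM in Blimp1KO. In batch 2 they summed to 678 and 623 CPM in WT and 295 and 359 CPM in Xbp1KO, where Cd40 was called higher and Fcrla, Cd180 and Btla lower. The estimates of 16 of these 24 were higher in Xbp1KO and those of 8 lower, with a median log2 fold change of 0.41, so the median and the sum differed in direction. None of the 24 was at 0 counts in any group. The neutrophil and monocyte markers summed to 424 and 514 CPM in batch 1 WT and 660 and 344 CPM in Blimp1KO, so those groups overlapped. None of those 24 was called in Blimp1KO (1 at an unadjusted p below 0.05, 1 by DESeq2), and none was at 0 counts in any group. In Xbp1KO 1 was called higher, Itgam, and 23 of 24 estimates were higher, with a median of 1.32. The 2 Xbp1KO libraries were unlike in these markers. Itgam made up 41.7 of the 45.7 CPM of replicate 1 and 40.8 of the 1631 CPM of replicate 2. Mmp9 had 1.14 and 8.94 CPM in batch 2 WT and 0.0695 and 28.3 CPM in Xbp1KO, so its groups overlapped. In Blimp1KO, Itgam (1.90 ± 0.32, adjusted p = 0.0533) and Mmp9 (-2.28 ± 1.84, adjusted p = 0.687) had the smallest p. In batch 2 the library with the higher neutrophil and monocyte sum was, in each group, the one with more Cd72 and Fcer2a. Cd22 followed this in Xbp1KO and not in batch 2 WT, with 10.1 CPM in WT replicate 3 and 7.62 CPM in WT replicate 4. In batch 1 the library with the higher sum had less Cd72 in both groups. B progenitor markers (14) summed to 124 and 191 CPM in the Xbp1KO libraries and 188 and 155 CPM in batch 2 WT, and 1 of the 13 tested was called higher, Kit, with 12 of 13 estimates higher and a median of 1.39. In Blimp1KO these markers summed to 91.4 and 71.3 CPM against 143 and 176 CPM, and none was called (2 at an unadjusted p below 0.05, 2 by DESeq2), with Kit at -1.87 ± 0.30 (adjusted p = 0.0508) and Cd93 at -1.07 ± 0.25 (adjusted p = 0.112). Cd93 alone made up most of each progenitor sum, with 118 and 149 CPM in batch 1 WT and 71.8 and 55.5 CPM in Blimp1KO. It had 154 and 125 CPM in batch 2 WT and 77 and 105 CPM in Xbp1KO. Of the 14 markers, 8 were below 1 CPM in both libraries of batch 1 WT and 7 in both of Blimp1KO.

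The summed level of 16 dendritic cell markers stood above WT without overlap in both knockouts, and most of the rise was that of Ly6d. Ly6d alone had 433 and 521 CPM in batch 1 WT and 758 and 1313 CPM in Blimp1KO. In batch 2 it had 256 and 232 CPM in WT and 940 and 1053 CPM in Xbp1KO. All 16 summed to 717 and 822 CPM in batch 1 WT and 1080 and 1636 CPM in Blimp1KO. In batch 2 the sum was 524 CPM in each WT library and 1275 and 1355 CPM in Xbp1KO. Many of the 16 were near the floor. In both libraries of the group, 7 were below 1 CPM in batch 1 WT and 3 in Blimp1KO. In batch 2 these were 8 in WT and 7 in Xbp1KO. In Xbp1KO Ccr9, Ly6d and Cox6a2 were called higher and Pacsin1 lower. In Blimp1KO none was called (4 at an unadjusted p below 0.05, 2 by DESeq2), and Ly6d (1.12 ± 0.30, adjusted p = 0.163) and Zbtb46 (2.22 ± 0.75, adjusted p = 0.256) had the smallest p. The median log2 fold change was 0.50 in Blimp1KO and 0.73 in Xbp1KO. Of the 15 tested, 12 estimates were higher and 3 lower in Blimp1KO, and 10 higher and 5 lower in Xbp1KO. Siglecg, Cd79b, Prkcb and Bank1 were also above WT in every knockout library, and a link to this sum was not tested. Erythroid and megakaryocyte markers split the libraries of every group: 42.2 and 181 CPM in batch 1 WT, 39.5 and 171 CPM in Blimp1KO, 41.8 and 345 CPM in batch 2 WT and 25.1 and 1094 CPM in Xbp1KO. None was called in either knockout (0 and 2 at an unadjusted p below 0.05, 0 and 1 by DESeq2), and 13 of 13 estimates were higher in Xbp1KO, with a median of 1.48 and the smallest p for Pf4 (5.27 ± 2.12, adjusted p = 0.192) and Itga2b (1.41 ± 0.58, adjusted p = 0.2). In Blimp1KO the median was -0.39, and Itga2b (-0.96 ± 0.61, adjusted p = 0.577) and Tfrc (-1.02 ± 0.77, adjusted p = 0.658) had the smallest p. The library with more of these markers in Xbp1KO and in batch 2 WT was again the one with more Cd72 and Fcer2a. Cd22 followed this in Xbp1KO and not in batch 2 WT. In batch 1 WT the library with more of these markers had less Cd72 and Fcer2a, and in Blimp1KO it had more Cd72 and less Fcer2a. T and NK cell markers summed to at most 76.1 CPM in any library, with Cd8b1 called higher and Prf1 lower in Xbp1KO. None of them was called in Blimp1KO (2 at an unadjusted p below 0.05, 0 by DESeq2), where Tcf7 (1.06 ± 0.33, adjusted p = 0.208) and Lat (-1.34 ± 0.56, adjusted p = 0.357) had the smallest p. Of the stroma and endothelium markers Alpl alone was called, lower in Blimp1KO (-1.61 ± 0.13, adjusted p = 0.0144) and higher in Xbp1KO (1.38 ± 0.13, adjusted p = 0.00317).

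In bulk RNA, more cells of another type and more RNA of these genes per plasma cell cannot be told apart, and the part of either in the results was not tested. With batch 2 reduced to WT replicate 3 and Xbp1KO replicate 1, an alternative added after the data were seen, Siglecg stood at 1.51, Cr2 at 1.94, Ptpn6 at -0.95 and Sh3bp2 at -0.70 on the log2 scale in Xbp1KO, and none was called. In that fit Siglecg (adjusted p = 0.0835) and Sh3bp2 (adjusted p = 0.217) were not called in Blimp1KO either.

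**Figure D4:**
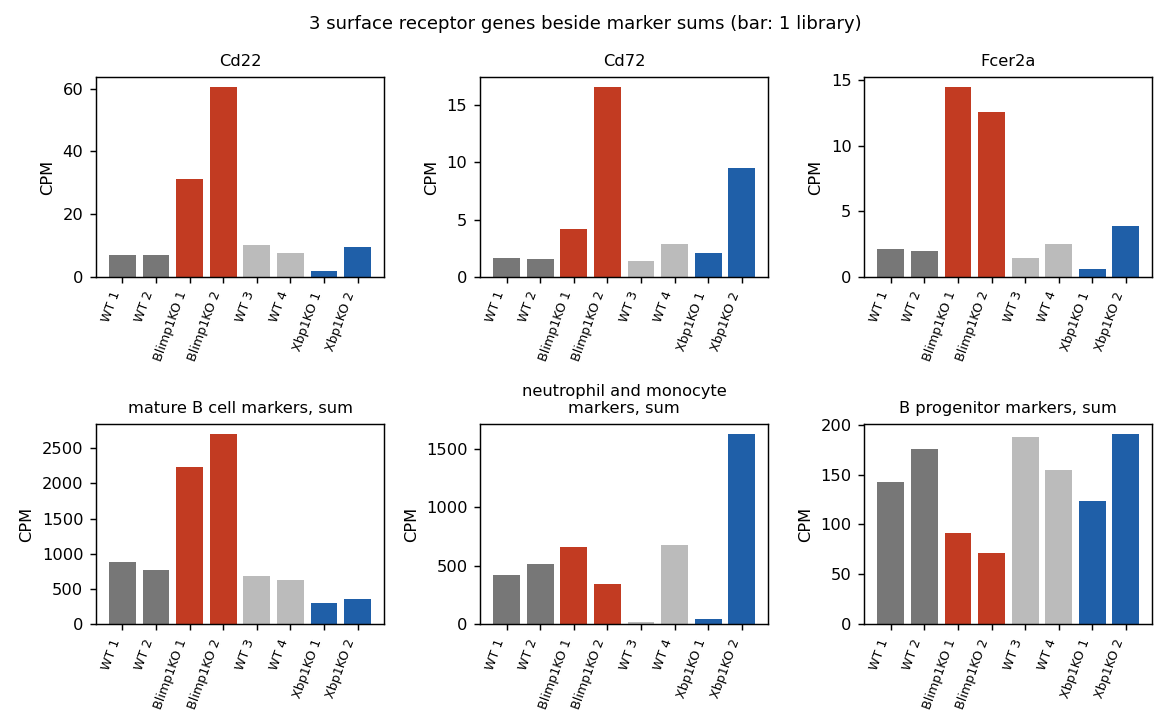
Bars show CPM in each of the 8 libraries for Cd22, Cd72 and Fcer2a (top) and for the summed markers of mature B cells, of neutrophils and monocytes, and of B progenitors (bottom). Both Blimp1KO libraries are above WT of their batch for the 3 genes and for the mature B cell sum. For Cd72, Blimp1KO replicate 1 at 4.15 CPM is below Xbp1KO replicate 2 at 9.53 CPM. Xbp1KO replicate 2 is high for the neutrophil and monocyte sum at 1631 CPM.

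Siglecg was the member that rose in both knockouts. It encodes Siglec-G, a sialic acid receptor that dampens receptor signals through SHP-1, and lies on chromosome 7, 43408192 to 43418349. It had 9.16 and 12.4 CPM in batch 1 WT and 29.9 and 32.2 CPM in Blimp1KO, and 13.6 and 10.9 CPM in batch 2 WT and 39 and 31 CPM in Xbp1KO. All 4 knockout libraries were above all 4 WT libraries. Per length, on the log2 FPKM scale, Siglecg stood at rank 30 of the 34 genes in both WT groups, at rank 24 in Blimp1KO (4.89 ± 0.14, SD) and at rank 17 in Xbp1KO (5.10 ± 0.17, SD). The rise was 2.88-fold in Blimp1KO (log2 1.53 ± 0.21, adjusted p = 0.0352) and 2.86-fold in Xbp1KO (log2 1.51 ± 0.21, adjusted p = 0.00943). The 2 effects differed by 0.01 ± 0.29 log2 (adjusted p = 0.996), so a difference of the size of this SE could not be told from none. Over the 8 libraries left out in turn, the log2 fold change of Siglecg was 1.33 to 1.76 in Blimp1KO and 1.26 to 1.69 in Xbp1KO. The call in Blimp1KO ended without WT replicate 1, 2, 3 or 4 or Blimp1KO replicate 2. Without any 1 of the 4 WT libraries almost no gene was called in Blimp1KO, so that loss was not particular to Siglecg. The call in Xbp1KO ended without WT replicate 3, WT replicate 4 or Xbp1KO replicate 1. With batch 1 fitted alone, Siglecg stood at 1.57 log2 in Blimp1KO (adjusted p = 0.0873).

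Of the 2 phosphatase genes of the inhibitory arm, Ptpn6 fell in Xbp1KO and Inpp5d was called in neither knockout. Ptpn6, which encodes SHP-1 (chromosome 6, 124720707 to 124738709), had 129 CPM in each WT library of batch 2 and 67.3 and 74.4 CPM in Xbp1KO, a 1.82-fold fall (log2 -0.86 ± 0.18, adjusted p = 0.0323). In batch 1 it had 188 and 153 CPM in WT and 207 and 213 CPM in Blimp1KO (log2 0.30 ± 0.17, adjusted p = 0.523). Blimp1KO libraries were the highest of all 8 and Xbp1KO libraries the lowest. The difference between the effects was 1.17 ± 0.25 (adjusted p = 0.071), which missed the threshold. Only with either Blimp1KO library left out did Ptpn6 stay called in Xbp1KO; without any of the other 6 libraries it was not (log2 -0.91 to -0.87 and adjusted p 0.0174 to 0.165). Inpp5d (SHIP-1) had 80.2 and 79.8 CPM in batch 2 WT and 67.8 and 67.2 CPM in Xbp1KO (log2 -0.24 ± 0.18, adjusted p = 0.469), and its groups overlapped in batch 1. Fcgr2b, the Fc receptor that signals through SHIP-1, had 47.9 and 47.3 CPM against 27 and 31.6 CPM in batch 2 (log2 -0.70 ± 0.20, adjusted p = 0.0828), and overlapping groups in batch 1.

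None of the 6 kinase genes was called in either knockout by edgeR, with 2 at an unadjusted p below 0.05 in each, while DESeq2 called Prkcb in Blimp1KO and Blk and Btk in Xbp1KO. Lyn, the Src kinase that starts both activating and inhibitory signals, had 56.1 and 51.8 CPM in batch 1 WT and 82.5 and 77.9 CPM in Blimp1KO (log2 0.57 ± 0.19, adjusted p = 0.238), and 51 and 52.2 CPM against 34.4 and 48.1 CPM in batch 2 (log2 -0.32 ± 0.19, adjusted p = 0.358). Btk, the Tec kinase that acts on phospholipase C, had 45 and 47.7 CPM against 61.7 and 49.7 CPM in batch 1, and 51 and 43.4 CPM against 30.6 and 29.2 CPM in batch 2 (log2 -0.66 ± 0.17, adjusted p = 0.0598). For both genes the knockout libraries lay above WT in batch 1 and below WT in batch 2. Blk, another Src kinase, had 34.3 and 37.6 CPM in batch 2 WT and 16.9 and 20.9 CPM in Xbp1KO (log2 -0.93 ± 0.28, adjusted p = 0.0987), and overlapping groups in batch 1. With batch 2 fitted alone, the kinase genes Blk and Btk were called lower and Prkcb higher in Xbp1KO, and among the other members not called above, Fcgr2b and Lat2 were called lower and Cd79b higher. Syk had 160 and 149 CPM in batch 1 WT and 169 and 139 CPM in Blimp1KO, and 196 and 205 CPM against 225 and 212 CPM in batch 2, with log2 fold changes of -0.01 ± 0.18 and 0.12 ± 0.18; the Xbp1KO libraries were above WT and the Blimp1KO libraries overlapped it. Prkcb, which encodes protein kinase C beta, was above WT in all 4 knockout libraries: 41.1 and 42.4 against 104 and 55.2 CPM in batch 1, and 51.8 and 48.7 against 78.9 and 75.9 CPM in batch 2 (log2 0.93 ± 0.28, adjusted p = 0.202, and 0.62 ± 0.28, adjusted p = 0.233). Pik3cd, the delta subunit of phosphoinositide 3-kinase, overlapped between groups in both batches.

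Among the 7 adaptors, Sh3bp2 fell in both knockouts. It encodes 3BP2, which links Syk, phospholipase C gamma and Vav (chromosome 5, 34525784 to 34563639). It had 34.1 and 37.5 CPM in batch 1 WT and 19.5 and 21.1 CPM in Blimp1KO, and 28.7 and 28.6 CPM in batch 2 WT and 17.7 and 18.1 CPM in Xbp1KO. Every knockout library was below every WT library. The fall was 1.76-fold in Blimp1KO (log2 -0.82 ± 0.13, adjusted p = 0.0451) and 1.6-fold in Xbp1KO (log2 -0.68 ± 0.13, adjusted p = 0.025), and the effects differed by -0.14 ± 0.18 (adjusted p = 0.791). In both knockouts the call held without either Blimp1KO library and ended without any 1 of the other 6 libraries. The log2 fold change stayed between -0.88 and -0.72 in Blimp1KO and between -0.74 and -0.67 in Xbp1KO. Without a WT library almost no gene was called in Blimp1KO, so that loss was not particular to Sh3bp2. The Blimp1KO call of Sh3bp2 also ended with batch 1 fitted alone (adjusted p = 0.187), with voom (adjusted p = 0.0634) and with the replicate number as a block (adjusted p = 0.0617).

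Grb2, the adaptor that links receptors to the Ras pathway and to CD22 (chromosome 11, 115644045 to 115708597), had 68.4 and 64.7 CPM in batch 1 WT and 116 and 129 CPM in Blimp1KO (log2 0.88 ± 0.15, adjusted p = 0.0516). In batch 2 it had 40.9 and 42.8 CPM in WT and 35 and 33.1 CPM in Xbp1KO (log2 -0.30 ± 0.14, adjusted p = 0.274). Neither comparison passed alone, and the difference between them did, at 1.18 ± 0.20 (adjusted p = 0.0444). It held without either Blimp1KO library and not without any of the other 6 (1.11 to 1.34 log2 and adjusted p 0.0307 to 0.272). WT itself stood apart between batches for Grb2, by -0.67 ± 0.14 log2 from batch 1 to batch 2 (adjusted p = 0.0609). None of the 34 genes was called between the WT groups, where 1.96% of all tested genes were called higher in batch 2 and 0.843% lower; 3 of the 34 (Grb2, Sh3bp2 and Bcl10) had an unadjusted p below 0.05, and RLE scaling also called none.

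Bank1, a scaffold for Lyn and the IP3 receptor, had 22.9 and 26.3 CPM in batch 1 WT and 53.4 and 45 CPM in Blimp1KO (log2 1.00 ± 0.17, adjusted p = 0.0538), and 27.3 and 24 CPM against 35.7 and 29.7 CPM in batch 2 (log2 0.35 ± 0.17, adjusted p = 0.272). Dapp1, an adaptor that reads phosphoinositide 3-kinase products, had 15.1 CPM in each WT library of batch 1 and 28.4 and 20.7 CPM in Blimp1KO (log2 0.71 ± 0.20, adjusted p = 0.179). Blnk, the central adaptor below Syk, had 176 and 167 CPM against 118 and 138 CPM in batch 1 (log2 -0.43 ± 0.18, adjusted p = 0.364), and its groups overlapped in batch 2. Both genes stood apart from WT without overlap in Blimp1KO and overlapped in Xbp1KO. Pik3ap1 (BCAP), an adaptor for phosphoinositide 3-kinase, and Lat2, a membrane adaptor, overlapped in batch 1. Both were below WT without overlap in Xbp1KO: 31.8 and 28.6 against 11.8 and 22.8 CPM for Pik3ap1, and 57.7 and 50.5 against 35 and 33.4 CPM for Lat2 (log2 -0.66 ± 0.21, adjusted p = 0.111).

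None of the 6 effector genes was called in either knockout, by edgeR or by DESeq2. Plcg2, the phospholipase C of B cells, ranged from 151 to 201 CPM over the 8 libraries. Vav1, an exchange factor for Rac, ranged from 48.6 to 56.1 CPM, with log2 fold changes of 0.11 ± 0.13 and -0.08 ± 0.13. Bcl10 and Malt1, partners in the complex that activates NF-kappa B, had log2 fold changes of 0.19 ± 0.13 and 0.53 ± 0.27 in Blimp1KO and -0.24 ± 0.13 and -0.07 ± 0.27 in Xbp1KO. Nfatc1, a calcium-driven transcription factor, had 41.3 and 40.1 CPM in batch 2 WT and 31.9 and 32.5 CPM in Xbp1KO (log2 -0.34 ± 0.17, adjusted p = 0.281). Rasgrp3, a diacylglycerol-activated Ras exchange factor, overlapped in both batches and had 334 CPM in Blimp1KO replicate 1 against 157 CPM in replicate 2. No effector had an unadjusted p below 0.05 in either knockout.

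**Figure D5:**
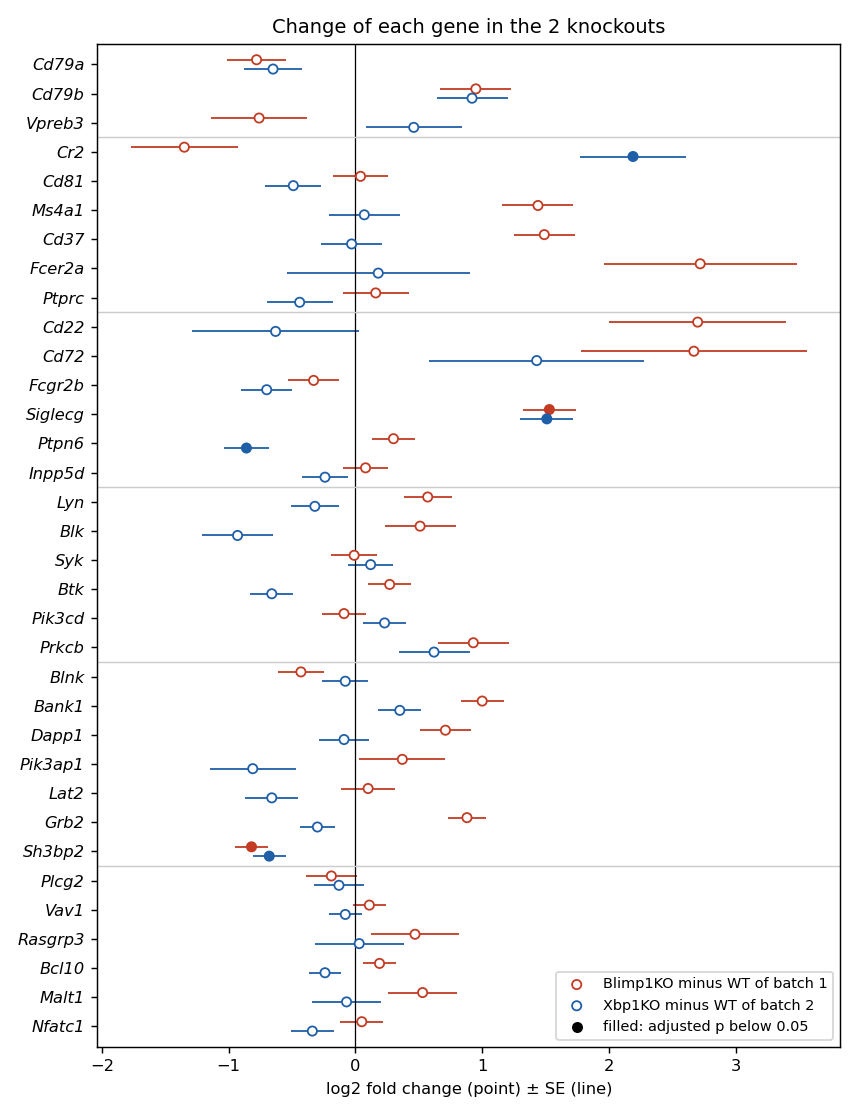
Points show the log2 fold change of each of the 34 genes against WT of its batch, lines show the SE, and filled points passed an adjusted p below 0.05. Filled points are Siglecg and Sh3bp2 in Blimp1KO and Cr2, Siglecg, Ptpn6 and Sh3bp2 in Xbp1KO, and the effectors at the bottom lie between -0.34 and 0.53.

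The wider pathway was described with 100 further genes of receptor signalling, of which all were tested. In Blimp1KO 1 rose, Fcmr, and none fell, with a median log2 fold change of 0.09, where 0.577% of all tested genes rose and 0.285% fell. Fcmr encodes the IgM Fc receptor of B cells and went from 76 and 48.7 CPM to 393 and 581 CPM (log2 2.97 ± 0.30, adjusted p = 0.0259). With batch 1 fitted alone its adjusted p was 0.0841. In Xbp1KO 5 rose and 6 fell, with a median of -0.04, where 2.63% of all tested genes rose and 5.06% fell. Fcrla, an intracellular Fc receptor-like protein that binds immunoglobulin in B cells, fell from 266 and 229 CPM to 19.3 and 29.7 CPM (log2 -3.34 ± 0.28, adjusted p = 0.00241). The calcium sensors of the endoplasmic reticulum that open the store-operated channel both fell: Stim2 from 17.2 and 16.9 to 6.8 and 5.49 CPM (log2 -1.47 ± 0.17, adjusted p = 0.00529), and Stim1 from 52.6 and 42 to 25.6 and 24.3 CPM (log2 -0.92 ± 0.17, adjusted p = 0.023). Hcls1, a cortactin-like substrate of Lyn and Syk, rose from 41.5 and 43.9 to 92 and 88.3 CPM (log2 1.08 ± 0.17, adjusted p = 0.0144). Fcmr lost its call in Blimp1KO without any 1 of the 4 WT libraries, as did almost all genes tested. In Xbp1KO Fcrla and Stim2 were called with each single library left out. Hcls1 lost its call without any 1 of the 4 libraries of batch 2, and Stim1 without any WT or Xbp1KO library. With batch 2 reduced to the 2 libraries of low myeloid marker sum, Fcrla alone of the 100 was called.

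Genes that receptor signals switch on within hours were described by a list of 22. None was called in Blimp1KO by edgeR, where the median log2 fold change was -1.29 and DESeq2 called 3. Dusp4 (-2.24 ± 0.52, adjusted p = 0.116) and Cd69 (-2.13 ± 0.70, adjusted p = 0.236) had the smallest p of the 22. At an unadjusted p below 0.05 there were 5, and the fit without the low-count filter called 4. The list summed to 5886 and 1198 CPM in WT replicates 1 and 2 and to 1756 and 325 CPM in Blimp1KO, so the groups overlapped. In Xbp1KO Myc alone was called: 9.09 and 8.2 CPM in batch 2 WT and 16 and 15.9 CPM in Xbp1KO (log2 0.88 ± 0.13, adjusted p = 0.0116), a call that ended without WT replicate 3, WT replicate 4 or either Xbp1KO library. The 22 genes summed to 224 and 557 CPM in batch 2 WT and 172 and 300 CPM in Xbp1KO, so the groups overlapped.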

How the data were processed

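RNA-seq was described for 8 libraries in 4 groups of 2. Per the labels, the submitters' processing notes name Subread, featureCounts and limma, without the step of each, and the builds GRCm38 and mm10. The deposited series table gives unnormalised counts of reads for each Entrez gene, and the authors' per-sample files hold log2 FPKM for 13945 genes, per the file headers; the scaling and gene filter behind the FPKM, and the strand setting, are not given in the sources used here. In batch 1 each deposited log2 FPKM file matched the count column of the same genotype but the other replicate number, so libraries are named by the count columns; groups are unaffected. Symbols came from the deposited files for 13860 of 27179 identifiers and from RefSeq (GRCm38.p6) for 11720; 1599 without a symbol held 0.057% to 0.24% of counts.

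Counts were filtered with filterByExpr (minimum count 10), scaled by TMM (factors 0.564 to 2.11) and fitted with edgeR 4.0.16 in R 4.3.3 with a mean per group over all 8 libraries (4 residual and 3.06 prior degrees of freedom). The series text calls the replicates biological; the labels do not say whether each is 1 animal. Alternatives were RLE size factors, immunoglobulin genes left out, no filter, DESeq2 1.42.0, limma 3.58.1 with voom and on log2 FPKM, the batch alone, a replicate block and each library left out. Named are all 34 genes; of each other list, up to 4 called genes with the smallest p per comparison, or 2 where none was called; and Prdm1, Xbp1 and Sdc1. The 34 genes and the lists were chosen with earlier results of these data known, and the lists share genes (Fcmr and Fcrla are in 2). Of the 34 genes, 15 overlap the span of another gene, 2 of them a protein-coding one (Fcer2a with Trappc5, Cd72 with Tesk1), and their reads cannot be assigned by strand. Protein sequences were not used here.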

Additional observations from a re-analysis of the deposited data

Results flagged for a closer look

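The effects of the 2 knockouts, each against WT of its batch, differed for 5 genes of the receptor pathway by edgeR's test of the difference, given here as the log2 effect in Blimp1KO minus that in Xbp1KO. Cr2 differed by -3.53 ± 0.60 (SE, adjusted p = 0.0412) and Grb2 by 1.18 ± 0.20 (adjusted p = 0.0444). Among the other receptor signalling genes named, Fcmr differed by 3.87 ± 0.40 (adjusted p = 0.0124), Fcrla by 3.42 ± 0.38 (adjusted p = 0.0141) and Stim2 by 1.62 ± 0.24 (adjusted p = 0.0286). Fcmr was at 393 and 581 CPM in Blimp1KO and 22.4 and 23.6 CPM in Xbp1KO, with 41.7 to 76 CPM in WT. Fcrla was at 327 and 409 CPM in Blimp1KO beside 370 and 326 CPM in its WT, and at 19.3 and 29.7 CPM in Xbp1KO. In each of these differences knockout and batch cannot be told apart.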

How the results depend on the processing

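All alternatives were planned, except those for the ratio of Cd79a to Cd79b and the fit of batch 2 without WT replicate 4 and Xbp1KO replicate 2, which were added after seeing the data. The number of the 34 members called in Blimp1KO (2 in the report) was 4 with RLE size factors, 5 without immunoglobulin genes, 9 without a filter, 12 with DESeq2, 1 with voom (Siglecg), 5 on log2 FPKM, 1 with the batch alone (Fcer2a), 1 with the 2 libraries of batch 2 set aside (Fcer2a), and 0 to 5 with 1 library left out. In Xbp1KO (4) it was 10 with DESeq2, 10 with the batch alone, 0 with those 2 libraries set aside and 0 to 10 with 1 library left out, 0 without WT replicate 3, WT replicate 4 or Xbp1KO replicate 1. For the difference of the effects (2) the members called were 6 without a filter, 9 with DESeq2, 1 on log2 FPKM, 0 with the 2 libraries set aside and 0 to 3 with 1 left out. A lone library in a group is assumed to vary like the other groups. In Blimp1KO the fits without a WT library called almost no gene at all, so members lost their calls there with the rest.

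WT and Blimp1KO share the replicate numbers 1 and 2 in batch 1, and nothing in the labels ties equal numbers to a shared animal or day. The deviations of equal numbers correlated at 0.22, over 2 pairs. With the replicate block 1 of the 34 members was called in Blimp1KO (Siglecg) and 89 genes in all, against 130 without it. Of the mature B cell markers outside the members, 4 were called with the block, against 7 without it. No paired analysis was possible for Xbp1KO because its numbers are not shared by batch 2 WT.

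Directions turned for genes whose estimates were not called. In Blimp1KO, Cd81 had -0.03 on log2 FPKM, and Syk had 0.01 with RLE and with DESeq2, 0.02 without immunoglobulin genes, 0.00 without a filter, and 0.04 with the batch alone or the 2 libraries set aside. In Xbp1KO, Fcer2a had -0.52 with voom and -0.31 on log2 FPKM, Cd37 had 0.01 on log2 FPKM, and Rasgrp3 had -0.02 without immunoglobulin genes and -0.01 with voom. With the 2 libraries set aside, Vpreb3 had -0.04, Fcer2a -1.17, Pik3cd -0.02 and Blnk 0.01 there, and the difference of effects of Cd79a was 0.01. That of Cd79b was -0.02 with voom and -0.16 on log2 FPKM. Over single libraries left out, the ranges that crossed 0 in Blimp1KO were -0.20 to 0.29 (Cd81), -0.22 to 0.49 (Ptprc), -0.09 to 0.28 (Inpp5d), -0.10 to 0.13 (Syk), -0.17 to 0.03 (Pik3cd), -0.22 to 0.41 (Lat2), -0.12 to 0.92 (Rasgrp3) and -0.14 to 0.28 (Nfatc1). In Xbp1KO they were -0.29 to 0.40 (Ms4a1), -0.11 to 0.03 (Cd37), -1.60 to 0.91 (Fcer2a), -2.18 to 0.03 (Cd22), -0.30 to 0.08 (Blnk), -0.25 to 0.07 (Dapp1), -0.37 to 0.05 (Plcg2), -0.26 to 0.25 (Rasgrp3) and -0.29 to 0.07 (Malt1). For the difference of effects they were -0.40 to 0.17 (Cd79a), -0.40 to 0.42 (Cd79b) and -0.18 to 0.32 (Siglecg). Over all alternatives run for it, the difference of effects also crossed 0 for Cd72 (-0.07 to 2.72), Syk (-0.22 to 0.04), Prkcb (-0.15 to 0.70), Plcg2 (-0.19 to 0.23) and Rasgrp3 (-0.15 to 0.89). The causes were not tested. The called members Siglecg, Sh3bp2, Cr2, Ptpn6 and Grb2 kept their sign under every alternative run for the comparison in which each was called.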
